A study of Mus musculus with 6 samples.

Results

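The genes described here are the translation initiation and elongation factors of the mouse heart. The members are the genes of the deposited table whose symbol starts with Eif or Eef, without the eIF4E-binding proteins (Eif4ebp). This gave 64 of the 14133 genes, and all 64 passed the filter on low values. RNA came from the heart of C57BL/6 mice that were 1 month old. The 3 control hearts carried floxed alleles of thioredoxin-1 (Trx1 flox/flox, the gene Txn1) and no Cre, and are called control replicates 3, 4 and 5. The other 3 hearts carried the same floxed alleles and a Cre transgene under the Myh6 (alpha myosin heavy chain) promoter, which is active in cardiomyocytes (Trx1 flox/flox/MHC-Cre, replicates 6, 7 and 8). No group carried Cre without floxed alleles, so the transgene and the loss of the gene cannot be told apart.

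Initiation factors bring the ribosome to the start codon of an mRNA. eIF2 delivers the initiator tRNA, eIF2B recharges eIF2 with GTP, eIF3 is the scaffold on the small ribosomal subunit, and the eIF4 proteins bind the mRNA cap and unwind the leader. In elongation, eEF1A delivers aminoacyl-tRNAs, the eEF1B subunits recharge eEF1A, and eEF2 moves the ribosome along. The mTOR kinase, named in the title of the series, acts on this machinery through the eIF4E-binding proteins and through the kinase of eEF2. Several factors exist as a pair of paralogs. In mice Eef1a1 is the broadly used eEF1A gene, and Eef1a2 is used in heart, skeletal muscle and neurons, where it takes over after birth.

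Values are log2 CPM as deposited, that is, a read value per gene, not always a whole number, divided by a size given to the library. The size recovered from the values was not the recovered read total. It was 13488746 against 13705281 reads in control replicate 3, and 9743619 against 8961708 reads in labelled knockout replicate 6. Rose and fell are used for genes with an adjusted p under 0.05 in a limma fit over all 12516 tested genes. Reads recovered from the values came to 8347636 to 13705281 per library, and the median factor had 862 reads in its median library. The lowest value of any factor was 29 reads (Eef1akmt4). RNA of the targeted gene, Txn1, did not pass the test in either direction. Its log2 CPM was 6.640, 6.996 and 7.042 in the controls (replicates 3, 4 and 5) and 6.950, 6.902 and 7.132 in replicates 6, 7 and 8. The groups overlap, with a log2 difference of 0.10 (limma, 95% confidence interval -0.22 to 0.42, adjusted p = 0.72), which became -0.025 without control replicate 3. The value covers the whole gene and all cell types, and which exons are floxed is unknown here, so it does not test the labels. Hearts with Cre are called the libraries labelled knockout, and every direction is labelled knockout minus control. The labelled tissue was checked against its defining markers: Myh6 lay between 15.06 and 16.15 log2 CPM in the 6 libraries, and none of the 8 cardiomyocyte markers was at 0. The libraries also held RNA of other heart cells, and fewer cells of a type and less RNA per cell cannot be told apart. The Y-linked factor Eif2s3y was found at 6.34 to 6.87 log2 CPM in all 6 libraries, as were Ddx3y, Kdm5d and Uty (3.97 log2 CPM or more). The labels do not say whether each library came from its own animal, and p-values cover only the spread among the 6 libraries, which may be technical.

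Of the 64 factors, 3 rose and 2 fell in the libraries labelled knockout, a share of 7.81% against 9.66% of all tested genes (4.69% against 4.79% rising and 3.12% against 4.87% falling). Eef1a1 and Eif4a1 rose and their paralogs Eef1a2 and Eif4a2 fell, and the eIF3 subunit gene Eif3b rose. The other 59 factors did not pass the test, and 11 of the 64 had an unadjusted p under 0.05 (24.8% of all tested genes did). The groups did not overlap in 20 of the 64 (31.2%) and in 30.7% of the genes tested. Their median log2 fold change was 0.09, where that of the whole table was -0.01, and the median absolute log2 fold change was 0.22 against 0.30. Higher means in the libraries labelled knockout were found for 47 factors and lower ones for 17, with the inseparable Eif3j1 and Eif3j2 both counted, against 6112 and 6404 of all tested genes. By library, the median difference of the factors from the control mean was 0.05, 0.19 and 0.12 in replicates 6, 7 and 8. All factors together took 1.40% to 1.49% of the CPM in the controls and 1.76%, 1.62% and 1.56% in replicates 6, 7 and 8. The groups did not overlap in this share, but the CPM it is divided by summed to 919751 to 1042612 and differed by library. The summed CPM of the factors itself nearly met between the groups, at 15124 in control replicate 3 and 15142 in replicate 8.

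**Figure D1:**
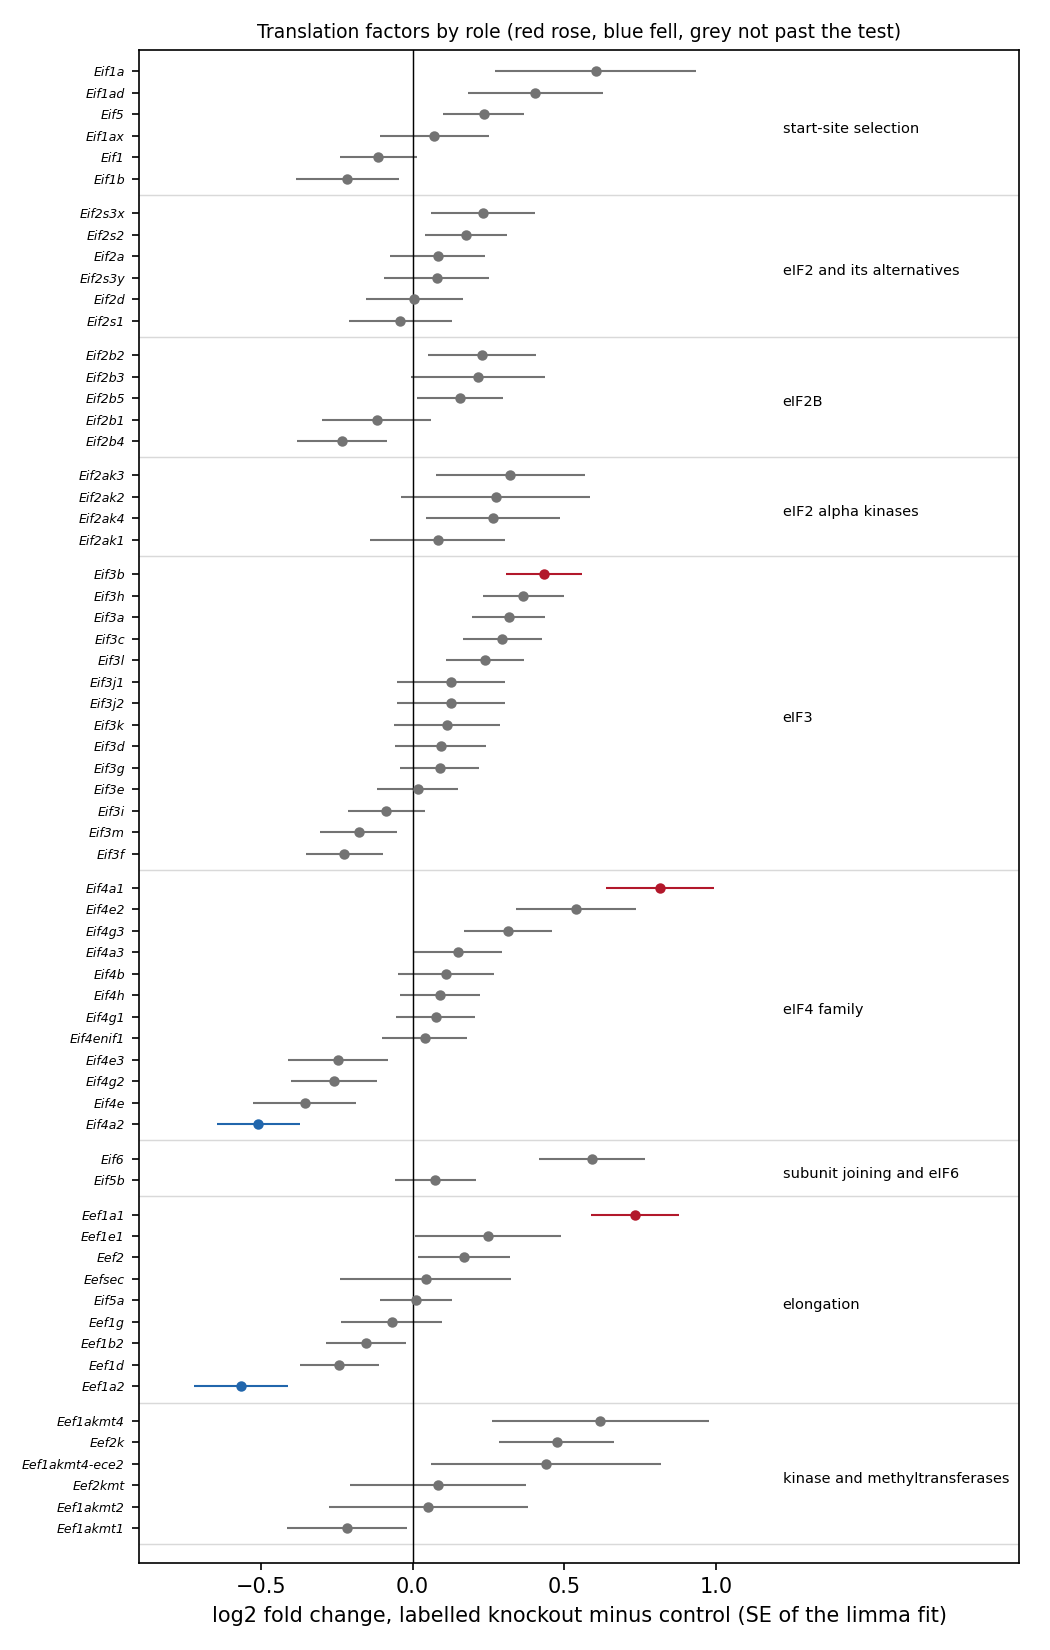
Log2 fold change (labelled knockout minus control, x axis, with the SE of the limma fit as bars) of each of the 64 factors, grouped by role. Red points rose (Eef1a1, Eif4a1, Eif3b), blue points fell (Eef1a2, Eif4a2) and the 59 grey points did not pass the test.

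The promoters of the 5 factors that passed the test are shown because 4 of them belong to paralog pairs that moved in opposite directions. Each stretch runs from 100 bases before to 30 bases after the annotated transcript start, 5′ to 3′ on the gene's strand (RefSeq, GRCm38.p6). The stretches are chr9:78481695-78481824 (minus strand) for Eef1a1, chr2:181156986-181157115 (minus) for Eef1a2, chr11:69672394-69672523 (minus) for Eif4a1, chr16:23107368-23107497 (plus) for Eif4a2 and chr5:140419205-140419334 (plus) for Eif3b. Capitals mark matches on either strand to the GC box GGGCGG, the CCAAT box CCAAT and the TATA motif TATANAA, and no 2 matches in these stretches overlap.
Eef1a1: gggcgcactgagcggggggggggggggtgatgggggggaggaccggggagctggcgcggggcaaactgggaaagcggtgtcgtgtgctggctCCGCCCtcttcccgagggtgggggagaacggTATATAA
Eef1a2: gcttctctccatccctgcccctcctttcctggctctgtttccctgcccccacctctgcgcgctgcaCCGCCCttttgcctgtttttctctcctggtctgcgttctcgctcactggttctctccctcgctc
Eif4a1: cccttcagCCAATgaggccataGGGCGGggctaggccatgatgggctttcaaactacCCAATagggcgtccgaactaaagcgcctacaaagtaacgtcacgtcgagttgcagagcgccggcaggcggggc
Eif4a2: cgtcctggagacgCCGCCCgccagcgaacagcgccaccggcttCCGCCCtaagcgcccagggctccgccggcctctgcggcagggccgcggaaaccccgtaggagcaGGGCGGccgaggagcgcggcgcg
Eif3b: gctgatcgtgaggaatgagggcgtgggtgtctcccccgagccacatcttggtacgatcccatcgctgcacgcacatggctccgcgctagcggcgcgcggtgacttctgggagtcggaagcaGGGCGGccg
The pairs differ in these letters. The Eef1a1 stretch holds 1 GC box before the start and a TATA motif at base 24 after it, and the Eef1a2 stretch holds 1 GC box and neither of the other motifs. The start used for Eef1a1 lies well inside the span that GENCODE M21 gives the gene (chromosome 9, 78478449 to 78489151, minus strand). Which start was used in these hearts was not tested. The Eif4a1 stretch holds 2 CCAAT boxes and 1 GC box, while the Eif4a2 stretch holds 3 GC boxes. The Eif3b stretch holds 1 GC box. Windows of 300 bases were matched for 52 of the 64 factors, some with several starts. The GC box was in 47 of their 67 windows (70.1%) and in 35.7% of the 32851 windows of all genes. The CCAAT box was in 25.4% against 37.4%, and the TATA motif in 7.5% against 11.3%. These matches describe letters and show no binding.

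Eef1a1, which encodes the widely used form of eEF1A, had 10.82, 10.61 and 10.61 log2 CPM in the controls, in the order of replicates 3, 4 and 5, and 11.46, 11.50 and 11.28 in labelled knockout replicates 6, 7 and 8. All 3 libraries labelled knockout lay above all 3 controls. The gene rose by 0.73 ± 0.15 (log2 fold change and SE, 1.66-fold, adjusted p = 0.00842). It lies on chromosome 9, 78478449 to 78489151 (mm10, GENCODE M21). Eef1a2, the muscle and neuron form, had 10.99, 10.99 and 10.87 log2 CPM in the controls and 10.66, 10.23 and 10.25 in replicates 6, 7 and 8. Its groups did not overlap, and replicate 6 was the closest to the controls. It fell by 0.57 on the log2 scale (SE 0.15, adjusted p = 0.0372). The gene lies on chromosome 2, 181147653 to 181157014.

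The ratio of the paralogs was lower in every library labelled knockout than in every control. The log2 CPM of Eef1a2 minus that of Eef1a1 was 0.17, 0.38 and 0.25 in the controls and -0.80, -1.26 and -1.03 in replicates 6, 7 and 8. Before division by transcript length, Eef1a2 was the higher value in every control and the lower one in every library labelled knockout. Per length its share of the pair was 49.2%, 52.8% and 50.6% in control replicates 3, 4 and 5, so the paralogs were about equal there. The shift was -1.30, a 2.46-fold change of the ratio (exact two-sided permutation test, p = 0.1, the smallest that 3 against 3 allows; 0.35 after adjustment over the 7 pairs compared). Divided by transcript length, Eef1a2 made up 50.9% ± 1.79 of the eEF1A RNA in the controls and 29.7% ± 3.34 in the libraries labelled knockout (SD, n = 3). The sum of both genes was 3835, 3598 and 3430 CPM in the controls and 4439, 4093 and 3707 CPM in replicates 6, 7 and 8. These sums overlap between the groups (exact two-sided permutation test, p = 0.2). Per kilobase and on the log2 scale, Eef1a2 (9.89), Eef1a1 (9.84) and Eef2 (9.64) were the highest of the elongation factors in the controls, and the first 2 differed by less than the SD of either. In the libraries labelled knockout the order was Eef1a1 (10.57), Eef2 (9.81) and Eef1a2 (9.32).

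The second pair encodes eIF4A, the RNA helicase of the cap-binding complex. Eif4a1 had 8.31, 7.58 and 7.91 log2 CPM in the controls and 8.57, 8.95 and 8.72 in replicates 6, 7 and 8. The groups did not overlap, and the controls were further apart (SD 0.37) than the libraries labelled knockout (SD 0.19). Eif4a1 rose by 0.82 ± 0.18 (log2 fold change and SE, 1.76-fold, adjusted p = 0.0136). Eif4a2 had 8.23, 8.24 and 8.25 log2 CPM in the controls and 7.49, 7.77 and 7.93 in replicates 6, 7 and 8. The 3 controls were nearly equal, and replicate 6 was the furthest below them. Eif4a2 fell by 0.51 on the log2 scale (SE 0.14, adjusted p = 0.0357). The genes lie on chromosome 11, 69666936 to 69672423, and chromosome 16, 23107444 to 23114136.

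The log2 CPM of Eif4a2 minus that of Eif4a1 was -0.07, 0.66 and 0.34 in the controls and -1.08, -1.18 and -0.79 in replicates 6, 7 and 8. All libraries labelled knockout lay below all controls, with a shift of -1.32, a 2.5-fold change of the ratio (exact two-sided permutation test, p = 0.1, 0.35 after adjustment over the 7 pairs). Per length, Eif4a2 made up 48.1% ± 6.34 of the RNA of the pair in the controls and 27.1% ± 2.81 in the libraries labelled knockout (SD, n = 3). The sum of the pair was 493 to 618 CPM in the controls and 561 to 713 CPM in the libraries labelled knockout, and these ranges overlap (exact two-sided permutation test, p = 0.2). Eif4a3, a related helicase of the exon junction complex, gave a log2 difference of 0.15 ± 0.15 (adjusted p = 0.574).

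**Figure D2:**
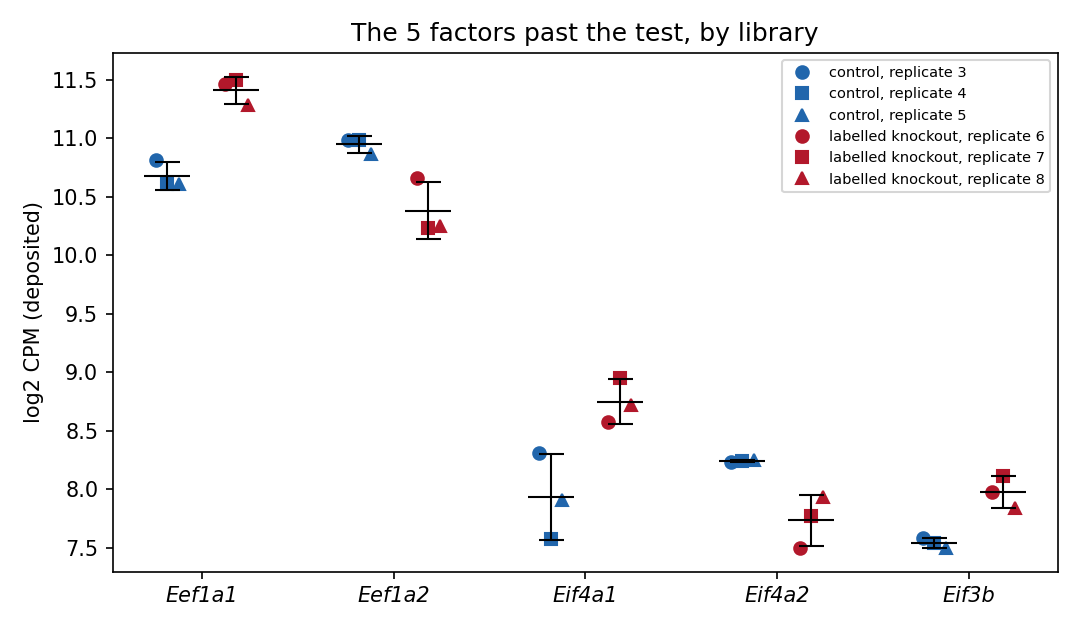
Deposited log2 CPM (y axis) of the 5 factors past the test in each library, controls in blue and libraries labelled knockout in red, with the mean and SD of 3 libraries in black. In each gene the red points lie wholly above (Eef1a1, Eif4a1, Eif3b) or below (Eef1a2, Eif4a2) the blue ones.

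The other 5 paralog pairs did not separate the groups. For Eif4e3 against Eif4e, both of which encode cap-binding proteins, the shift of the log2 ratio was 0.11. For Eif1b against Eif1, which act in start codon choice, it was -0.10. For Eif1ax against Eif1a, which encode forms of eIF1A, it was -0.53, and replicate 6 lay among the controls. For Eif4g3 against Eif4g1, scaffolds of the cap complex, it was 0.24, and for the Y-linked Eif2s3y against the X-linked Eif2s3x, which encode the gamma subunit of eIF2, -0.15. Each of these had groups that overlap and an exact permutation p of 0.2 or 0.7. Eif5a2 is not among the genes analysed here, so the eIF5A pair was not compared.

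**Figure D3:**
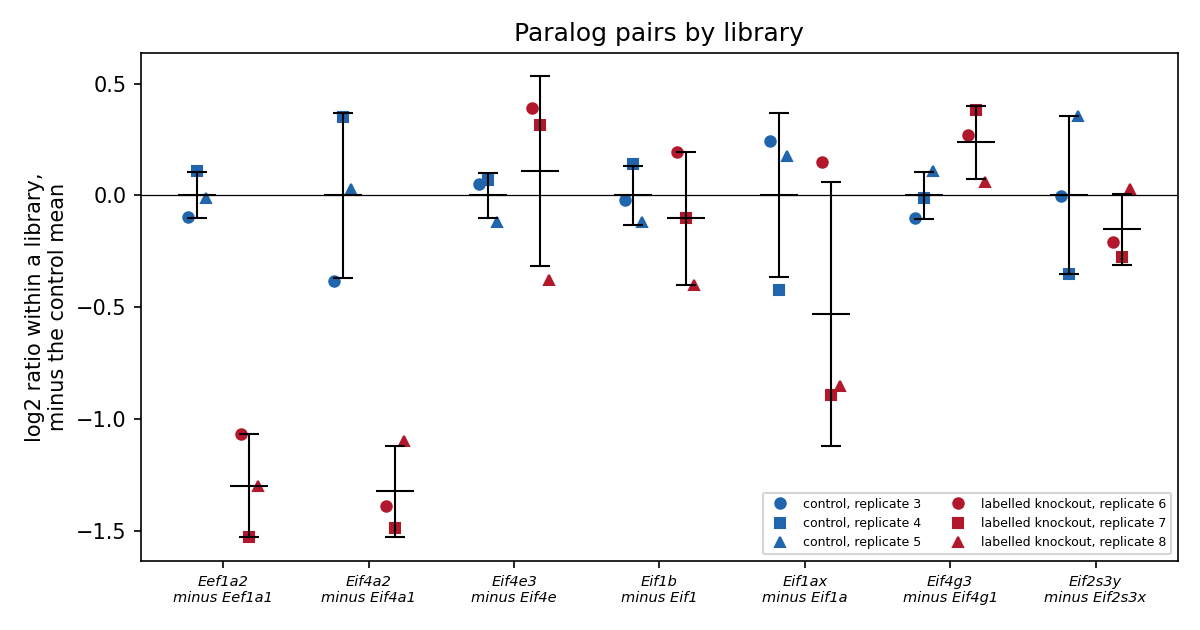
Log2 ratio of the paralogs within each library, minus the mean of the controls (y axis), for the 7 pairs, with controls in blue, libraries labelled knockout in red and the mean and SD in black. The red points of Eef1a2 minus Eef1a1 and Eif4a2 minus Eif4a1 lie near -1.30 and -1.32, below every blue point, and the groups overlap in the other 5 pairs.

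Some markers of cell types also passed the test. Of all tested genes, 4.87% fell and 4.79% rose. The summed level of the 8 cardiomyocyte markers was 123283 to 138153 CPM in the controls and 77317 to 105966 CPM in the libraries labelled knockout. Tnni3, Ryr2, Pln and Ttn fell, 4 of the 8. Myh6, the highest of the 8 in every library, did not pass the test (limma, adjusted p = 0.184), nor did Tnnt2, Actc1 and Myl2. Tnnt2 alone had a higher mean in the libraries labelled knockout (log2 fold change 0.05). The summed level of the 6 fibroblast markers was 932 to 1127 CPM in the controls and 1622 to 4267 CPM in the libraries labelled knockout, and 3 of the 6 rose. Of 5 endothelial markers 1 fell (916 to 980 CPM against 622 to 825 CPM). Of 5 macrophage markers 0 passed limma or limma-voom and 1 had an unadjusted p under 0.05 (289 to 329 CPM against 337 to 399 CPM). The same counts held for 5 smooth muscle and pericyte markers (610 to 894 CPM against 895 to 1514 CPM). Acta2, the highest of these 5 in every library, had a log2 fold change of 0.74 (limma, adjusted p = 0.0569). Tagln (0.39) and Cnn1 (0.29) had higher means in the libraries labelled knockout, and Myh11 (-0.37) and Rgs5 (-0.03) had lower ones. Of 4 erythroid and 3 neuron and Schwann markers, 0 passed limma or limma-voom and 0 had an unadjusted p under 0.05. The erythroid Hbb-bs and Hbb-b1 had the same value in every library and count as 1 measurement. The neuron and Schwann markers summed to 9.64 to 11.7 CPM in the controls and 10.4 to 18.6 CPM in the libraries labelled knockout. Of 3 tested skeletal muscle markers 1 rose (Tnnt3) and 1 fell (Ckm, which the heart also uses). No listed marker in the table was at 0 in all 6 libraries. The part of the cell mixture in the change of either pair was not tested.

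Among the 9 elongation factors only Eef1a1 and Eef1a2 passed the test (22.2%, against 9.66% over all tested genes). Eef2, the translocase, had 11.36, 11.19 and 11.25 log2 CPM in the controls and 11.59, 11.46 and 11.26 in replicates 6, 7 and 8. Replicate 8 lay within the control range, and the log2 fold change was 0.17 (95% confidence interval -0.16 to 0.50, adjusted p = 0.538). The subunits of the exchange factor eEF1B had log2 fold changes of -0.24 for Eef1d, -0.15 for Eef1b2 and -0.07 for Eef1g, none past the test. Eif5a, which helps the ribosome over difficult stretches, was nearly level, at 7.92 to 8.06 log2 CPM in the controls and 7.98 to 8.05 in the others. Its log2 fold change was 0.01 (95% confidence interval -0.25 to 0.27). Eefsec, the elongation factor for selenocysteine, and Eef1e1, a part of the multi-synthetase complex, had log2 fold changes of 0.04 and 0.25 and did not pass the test.

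Of the 6 genes of enzymes that modify elongation factors, 0 passed the limma test, 1 had an unadjusted p under 0.05, and 0 passed limma-voom. That 1 was Eef2k, the kinase that inhibits eEF2. Its log2 CPM was 5.64, 6.13 and 5.96 in the controls and 6.01, 6.50 and 6.64 in replicates 6, 7 and 8. Replicate 6 lay inside the control range. The log2 fold change was 0.47 ± 0.19 (adjusted p = 0.138; 0.0386 without replicate 6). The methyltransferase genes Eef1akmt1, Eef1akmt2 and Eef2kmt had log2 fold changes of -0.22, 0.05 and 0.09. Eef1akmt4 (0.62 ± 0.36) overlaps the read-through gene Eef1akmt4-ece2, and both rest on few reads.

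The eIF3 complex gave 1 call among 14 genes (7.14%, against 9.66% over all tested genes). Eif3b, a core scaffold subunit, had 7.58, 7.54 and 7.50 log2 CPM in the controls and 7.97, 8.11 and 7.84 in replicates 6, 7 and 8. All libraries labelled knockout were above all controls. The gene rose by 0.43 ± 0.13 (1.35-fold, adjusted p = 0.0492), close to the threshold. It lies on chromosome 5, 140419328 to 140443360. A further 3 core or accessory subunits had an unadjusted p under 0.05 and groups that did not overlap, without passing the test. Eif3h was at a log2 fold change of 0.37 (adjusted p = 0.105), Eif3a, the largest subunit, 0.32 (0.119), and Eif3c 0.30 (0.18). Other subunits lay on the other side of 0: Eif3f had -0.22, Eif3m -0.18 and Eif3i -0.09. The groups did not overlap in 7 of the 14 eIF3 genes (against 30.7% over all tested genes), and the median log2 fold change was 0.12. Eif3j1 and Eif3j2 had the same value in every library, so their reads were not separated and they count as 1 measurement (0.13 ± 0.18).

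Of the 12 eIF4 genes, 1 rose and 1 fell, the eIF4A pair (16.7%, against 9.66% over all tested genes). Eif4e, which encodes the cap-binding protein itself, had 6.09, 6.09 and 6.17 log2 CPM in the controls and 5.62, 5.55 and 6.11 in replicates 6, 7 and 8. Replicates 6 and 7 were below all controls and replicate 8 was among them. The log2 fold change was -0.36 ± 0.17 (adjusted p = 0.219; 0.0261 without replicate 8). Eif4e2, which encodes a cap-binding protein known as a repressor of translation, had 4.58, 4.86 and 5.14 log2 CPM in the controls and 5.67, 5.23 and 5.30 in replicates 6, 7 and 8. Its groups did not overlap, but the highest control and the lowest library labelled knockout were close. The log2 fold change was 0.54 ± 0.20 (adjusted p = 0.108). The scaffold gene Eif4g1 was at 9.55 to 9.68 log2 CPM in the controls and 9.53 to 9.76 in the others. Eif4g2, a scaffold that does not bind eIF4E, had a log2 fold change of -0.26, and Eif4g3 one of 0.31. Eif4b and Eif4h, helpers of the helicase, had 0.11 and 0.09. None of these passed the test.

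The eIF2 branch gave no call, in sets of 4 to 6 genes. Over all tested genes 9.66% passed the test and 24.8% had an unadjusted p under 0.05, so 0 calls in such small sets say little. Of 6 genes of eIF2 and its alternatives, 5 of eIF2B and 4 of the eIF2 alpha kinases, 0 passed the limma test, 0 had an unadjusted p under 0.05, and 0 passed limma-voom. Eif2s1, the alpha subunit on which the stress kinases act, had 5.88, 5.79 and 5.80 log2 CPM in the controls and 5.45, 5.96 and 5.95 in replicates 6, 7 and 8. Replicate 6 was below the controls and the other libraries above them, and the log2 fold change was -0.04 (95% confidence interval -0.41 to 0.33). Eif2b5, the catalytic subunit of eIF2B, had 0.16 (-0.15 to 0.47). Among the kinases, Eif2ak3 (PERK, which senses stress of the endoplasmic reticulum) had 3.31, 3.12 and 3.35 log2 CPM in the controls and 3.44, 3.73 and 3.58 in the others. The groups did not overlap, with a log2 fold change of 0.32 ± 0.24 (adjusted p = 0.454). Eif2ak4 (GCN2, which senses a lack of amino acids), Eif2ak2 (PKR, which senses double-stranded RNA) and Eif2ak1 (HRI, which senses a lack of heme) had 0.26, 0.27 and 0.08. Replicate 7 was the highest library for each of the 4 kinases.

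Factors of start-site choice and subunit joining were also not past the test. Of 6 start-site genes, 0 passed limma, 0 had an unadjusted p under 0.05 and 0 passed limma-voom. Over all tested genes 9.66% passed limma and 24.8% had an unadjusted p under 0.05. Eif5, which makes eIF2 release its tRNA at the start codon, had a log2 fold change of 0.23 (95% confidence interval -0.06 to 0.52), and Eif5b, which joins the subunits, 0.08 (-0.21 to 0.36). Eif6, which keeps the large subunit from joining too early, lay just outside the threshold. Its log2 CPM was 5.42, 5.24 and 5.37 in the controls and 6.08, 6.12 and 5.60 in replicates 6, 7 and 8. The groups did not overlap, and replicate 8 was the closest to the controls. The log2 fold change was 0.59 ± 0.17 (adjusted p = 0.0517), and the gene passed with limma-voom (0.0496) and without replicate 8 (0.00515).

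**Figure D4:**
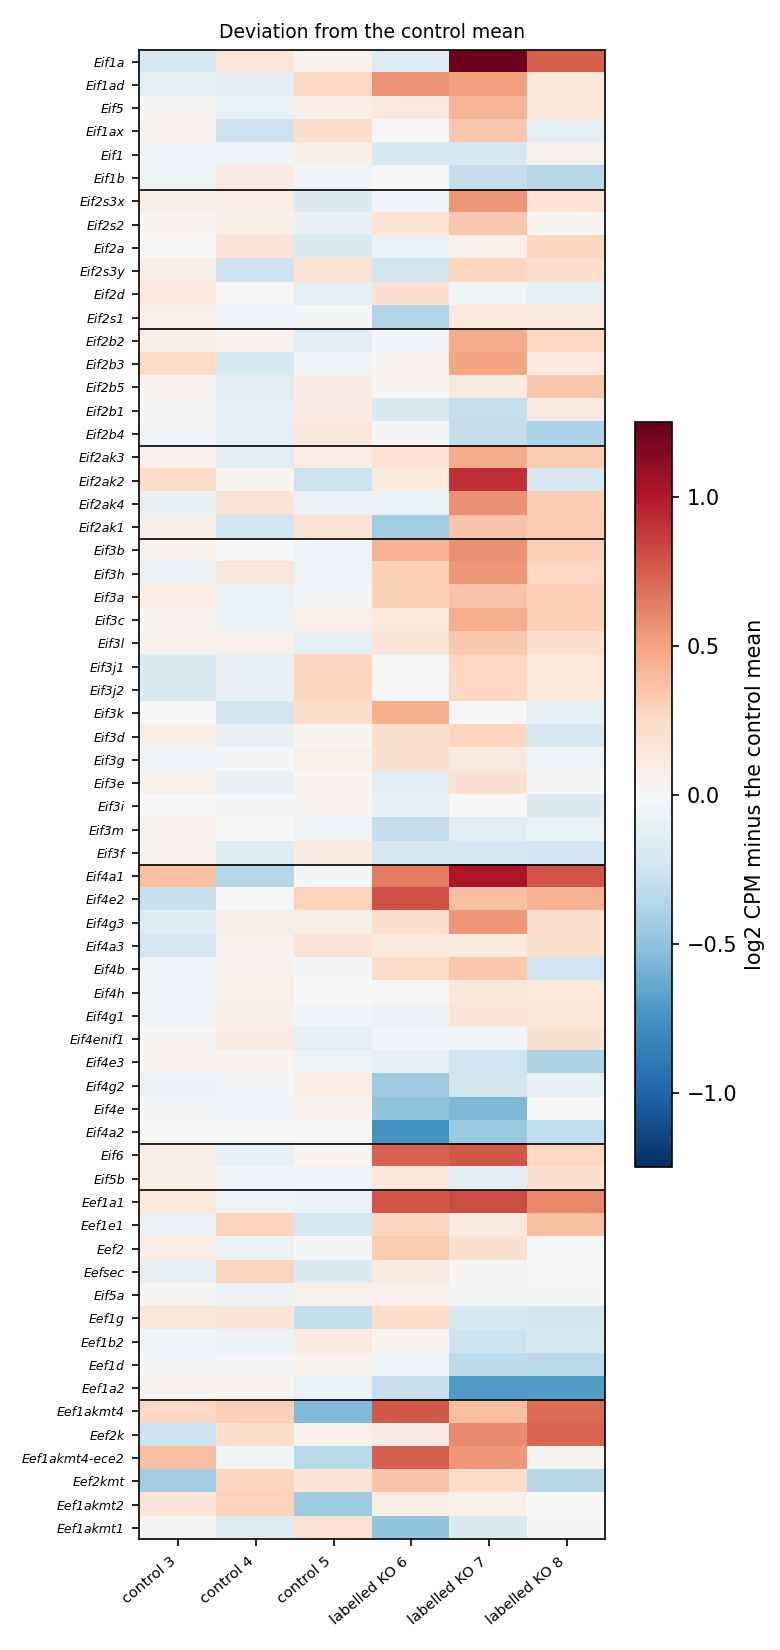
Deposited log2 CPM of each of the 64 factors (rows, grouped by role) in each library (columns), minus the mean of the 3 controls, with red above and blue below. The 3 right columns are the libraries labelled knockout, in which the median difference was 0.05, 0.19 and 0.12.

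Of 57 other genes of translation in the same fit, 2 rose and 3 fell, 8.77% against the 9.66% of all tested genes. Of 11 factors of mitochondrial translation, 3 fell (27.3%, against 4.87% over all tested genes), 0 rose, and all 11 had a lower mean in the libraries labelled knockout, with a median log2 fold change of -0.33. Of the 8 cardiomyocyte markers 4 also fell, with a median log2 fold change of -0.67, and their part in this was not tested. The 3 mitochondrial factors that fell were Tsfm, elongation factor Ts (-0.76 ± 0.15, adjusted p = 0.00917), Mtif2, the initiation factor (-0.60 ± 0.14, 0.0172), and Mrrf, the ribosome recycling factor (-0.60 ± 0.16, 0.0352). Their 3 values lay below all controls. Of 11 partners of the eIF2 pathway, Ppp1r15a rose by 1.06 ± 0.21 (adjusted p = 0.00904). It encodes GADD34, which brings a phosphatase to eIF2 alpha. Of 6 genes of termination and recycling, Pelo, which rescues stalled ribosomes, rose by 0.64 ± 0.18 (adjusted p = 0.0465). With 1 library left out, the calls of Tsfm and Ppp1r15a ended without control replicate 4 or 5 (adjusted p up to 0.0684 and 0.0608), and that of Mtif2 without any 1 control (up to 0.101). The call of Mrrf ended without any 1 control or without replicate 7 (up to 0.156), and that of Pelo in every such fit but the one without replicate 8 (up to 0.21) and without a filter (0.0551). Of 20 genes of cap regulation and mTOR, 0 passed limma, 2 had an unadjusted p under 0.05 and 0 passed limma-voom. The eIF4E-binding protein gene Eif4ebp1 was at 5.92, 5.70 and 5.61 log2 CPM in the controls and 6.44, 6.96 and 5.89 in replicates 6, 7 and 8. Replicate 8 lay in the control range (0.69 ± 0.23, adjusted p = 0.0778). Of the 9 genes that modify eIF5A and eEF2, 0 passed limma, 2 had an unadjusted p under 0.05 and 0 passed limma-voom.

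The calls depended on the libraries. None of the 5 held with every library left out in turn. Those of Eef1a1 and Eif4a1 ended without control replicate 4 (adjusted p = 0.0798 and 0.0913) or 5 (0.0773 and 0.0794). Those of Eef1a2 and Eif4a2 ended without any 1 control (up to 0.175 and 0.148) or without replicate 7 (0.0963 and 0.0584), and that of Eif4a2 also without replicate 6 (0.0682). The call of Eif3b ended in every such fit but the one without replicate 8 (adjusted p up to 0.196), and also with a robust trend (0.0521) or without a filter (0.0529). The groups of these 5 genes did not overlap in the 6 libraries, nor did those of 30.7% of all tested genes. The log2 fold changes of the 5 in those fits kept their sign. The 5 were chosen by a test on the same libraries, so neither adds support.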

How the data were processed

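Illumina libraries were made from total heart RNA (TRIzol), per the labels' protocols. The authors deposited log2 CPM per gene, per the file headers, with a shared floor of -3.29. HISAT2, CASAVA and edgeR are named with the build mm10 per the submitters' processing notes, without roles or versions. Reads were recovered from the steps of the values, and 83.2% to 84.3% of the genes above the floor were whole reads within 0.01. Among the factors, values that were not whole reads were found only in genes with several RefSeq NM transcripts. Examples are Eif4a1 (4277.5 in control replicate 3) and Eif4a2 (4062.3), so the sums and shares of that pair rest on such values. The sources used here do not say how the value of such a gene was formed from its transcripts. They also do not say how reads shared by paralogs or pseudogenes were assigned.

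The test covered 12516 of 14133 genes, those whose mean log2 CPM was 0 or more. It was a two-sided limma fit (version 3.58.1, R 4.3.3) of 2 group means with a variance trend over intensity, and p-values were adjusted by Benjamini-Hochberg. The fit was tested on simulated data. Paralog ratios were compared by exact permutation. Lengths are means over GENCODE M21 transcripts matched to RefSeq NM transcripts; 63 of 64 factors matched by symbol. The members, pairs and lists were chosen with earlier results of these data known. Values in each library were given for the factors past the test, those with the smallest p, the pairs and factors with set roles. Eef1d, Eif4g2 and other factors without library values are named for their roles.

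Alternatives were other filters, scalings, pseudocounts and variance models, limma-voom, a threshold of 0.01 and each library left out.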

Additional observations from a re-analysis of the deposited data

How the results depend on the processing

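The main counts were 3 factors rising and 2 falling, 600 and 609 of all genes, and 2 and 3 of the other translation genes. Without the variance trend limma called 0 and 0 factors, 71 and 50 of all genes, and 0 and 0 other translation genes, with 7 factors and 8 other translation genes at an unadjusted p under 0.05. Eef1a1 had an adjusted p of 0.0703 there. At a threshold of 0.01 the counts were 1 and 0 factors, 230 and 202 of all genes, and 1 and 1 other translation genes. Without a filter 2 factors rose and 1 fell, and 1 other translation gene rose, and after quantile normalization 1 factor fell, with Eef1a2 at -0.38 (adjusted p = 0.14). With 1 library left out, 0 to 5 factors rose and 0 to 3 fell, 242 to 1010 of all genes rose and 161 to 1175 fell, and 0 to 3 other translation genes rose and 0 to 5 fell. The lowest counts came without control replicate 4 or 5 and the highest without replicate 8. The cause was not tested.

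In the same fits the log2 difference of Txn1 was -0.025 to 0.18. The shift of Eef1a2 minus Eef1a1 was -1.41 to -1.18 and that of Eif4a2 minus Eif4a1 -1.51 to -1.15. The shift was -0.032 to 0.35 for Eif4e3 minus Eif4e, -0.25 to 0.045 for Eif1b minus Eif1, and -0.33 to 0.025 for Eif2s3y minus Eif2s3x, so these changed sign. No paired analysis was possible because the groups share no replicate numbers. Voom with TMM was not run: limma-voom used the library sizes behind the deposited values, an alternative chosen after seeing the data. It called 4 factors rising and 2 falling.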
